A study of Mus musculus with 16 samples.

Results

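*Pdzk1ip1* and *Tspan8* are 2 of the 734 genes measured in CD11b+ spleen cells on an nCounter panel of myeloid genes, an assay that tallies single RNA molecules with colour-coded probes. They were chosen together because both were far higher in mice given erythropoietin (EPO) with CTLA4-Ig than in mice given CTLA4-Ig without EPO, so they were chosen by that difference, which is described here without a test. The 16 animals were wild type C57BL/6 (B6) mice in groups of 4. One group was naive and untreated. The others were injected with 20 × 10⁶ BALB/c spleen cells, which are foreign to B6 mice, and received either no drug, a single i.p. dose of CTLA4-Ig (150 μg, day 2), or that dose and daily i.p. EPO at 5000 U per kg. CTLA4-Ig is a fusion protein that blocks CD28 costimulation of T cells. Spleens were taken on day 7 and the cells isolated with CD11b beads by positive selection. The sample labels give no age or sex.

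The labels and the paper differ on some of these points. The injected cells are described as T cell depleted and injected i.p. in the labels, and as given i.v. in the paper's results, where the profiled cells are also CD11c-negative. The growth protocol in the labels attaches the letter code of the naive group to the mice given BALB/c cells alone, and the reverse. Grouping here followed the sample titles and treatment fields, so each statement about these groups rests on those names. The group titled BALB/c cells alone lay near the group with CTLA4-Ig in its median log2 level over all genes (6.53 and 6.54). The group titled naive lay away from both (7.26). These medians depend on how the mice were scaled, and which group should lie near that with CTLA4-Ig is not known. They therefore cannot decide which names are right. Each mouse was a replicate.

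*Pdzk1ip1* encodes a small membrane protein, also called MAP17, that binds PDZ domain scaffold proteins and is best known from epithelial cells of the kidney, and in blood formation its messenger RNA marks stem and early progenitor cells. *Tspan8* encodes a tetraspanin, one of a family of membrane proteins with 4 membrane-spanning segments that organise integrins and other partners into surface domains, and it is best known from epithelia and carcinomas. EPO drives red cell formation through a receptor that activates the kinase JAK2 and the transcription factor STAT5.

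Because the members were high in the same mice, the stretch around each gene's start is shown. The 300 bases run from 250 before the start to 50 after it in the RefSeq table of build GRCm38.p6, in which both members were found. *Pdzk1ip1* lies on the + strand at chr4:115088458-115088757 and *Tspan8* on the + strand at chr10:115817034-115817333. Capitals mark matches to the E-box CANNTG, the only one of 4 searched motifs with a match.
Pdzk1ip1: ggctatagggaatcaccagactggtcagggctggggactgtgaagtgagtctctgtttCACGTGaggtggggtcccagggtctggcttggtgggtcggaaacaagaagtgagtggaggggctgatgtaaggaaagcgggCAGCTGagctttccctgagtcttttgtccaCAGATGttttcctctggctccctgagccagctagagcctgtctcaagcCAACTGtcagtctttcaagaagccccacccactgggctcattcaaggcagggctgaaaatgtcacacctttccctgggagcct
Tspan8: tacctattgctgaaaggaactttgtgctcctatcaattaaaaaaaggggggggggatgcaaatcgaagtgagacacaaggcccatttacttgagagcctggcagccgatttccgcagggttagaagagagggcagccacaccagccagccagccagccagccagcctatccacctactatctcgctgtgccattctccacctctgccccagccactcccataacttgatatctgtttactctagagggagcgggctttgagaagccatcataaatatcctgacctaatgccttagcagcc
The motifs were searched on both strands and were the STAT motif TTCNNNGAA, the GATA motif AGATAA, the ETS motif GGAAGT and the E-box. The *Pdzk1ip1* window held 4 E-boxes, and the *Tspan8* window held none. E-boxes occurred in 72.3% of the 32851 promoters of that table. Neither window held the STAT motif, which 8.30% of promoters held, the GATA motif, which 11.2% held, or the ETS motif, which 23.8% held. GC content was 55.7% for *Pdzk1ip1* and 51.7% for *Tspan8*, against a median of 52.7% over all promoters. A match in such a window is a description of the letters and no evidence that a factor binds there.

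In naive mice the deposited log2 values of *Pdzk1ip1* were 3.70, 4.04, 3.74 and 3.91. After BALB/c cells alone they were 3.13, 2.77, 2.34 and 2.14, and with CTLA4-Ig they were 2.80, 2.83, 2.56 and 1.74. With CTLA4-Ig and EPO they were 6.09, 5.76, 6.23 and 5.99. Each mouse given EPO was thus above each of the other 12 mice, and the 4 naive mice were above the 8 mice given BALB/c cells without EPO. The means were 3.85 ± 0.16 in naive mice, 2.59 ± 0.45 after BALB/c cells alone, 2.48 ± 0.51 after adding CTLA4-Ig and 6.02 ± 0.20 after adding both drugs (SD, n = 4 each).

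For *Tspan8* the naive values were 4.80, 3.66, 4.32 and 3.77. After BALB/c cells alone the values were 3.13, 3.77, 3.34 and 3.23, and with CTLA4-Ig they were 3.39, 2.98, 3.14 and 3.59. With CTLA4-Ig and EPO they were 6.70, 6.63, 7.05 and 6.69. The EPO group again stood apart from the other 12 mice, while naive mice overlapped those given BALB/c cells alone. Its means were 4.14 ± 0.53, 3.37 ± 0.28, 3.28 ± 0.27 and 6.77 ± 0.19 in the same order of groups (SD, n = 4 each).

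**Figure D1:**
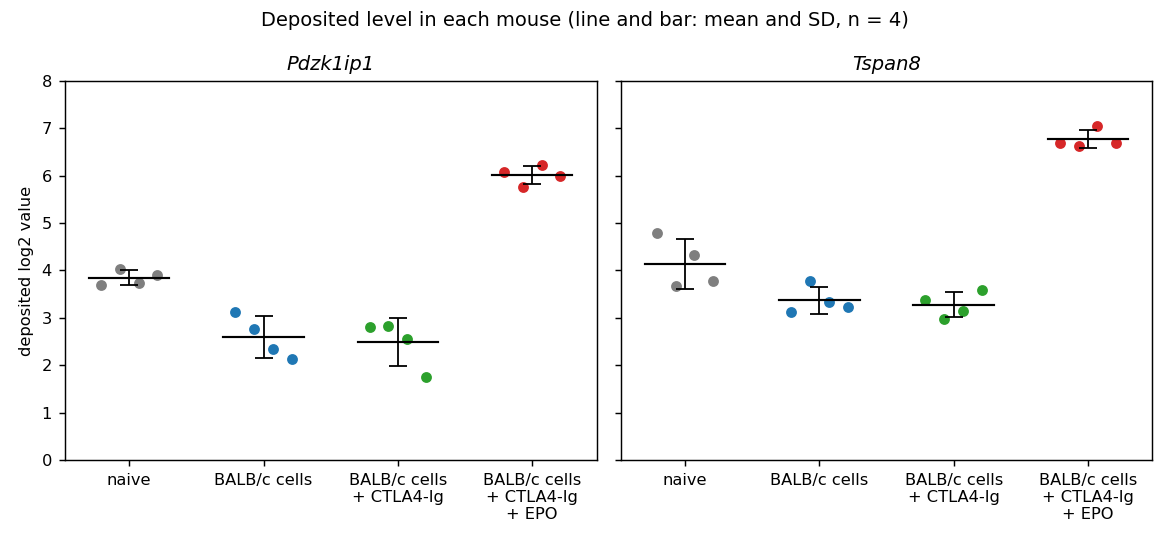
Deposited log2 value of *Pdzk1ip1* (left) and *Tspan8* (right) in each of the 16 mice, by group, with the mean as a line and the SD as a bar (n = 4). The mice given EPO lie between 5.76 and 6.23 for *Pdzk1ip1* and between 6.63 and 7.05 for *Tspan8*, above all others.

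On the deposited scale the order of the mean levels was the same for both genes, with EPO first, naive mice next, then BALB/c cells alone and CTLA4-Ig. The last 2 groups did not differ beyond their spread. CTLA4-Ig minus BALB/c cells alone was -0.11 (standard error 0.24) for *Pdzk1ip1* and -0.09 (standard error 0.23) for *Tspan8*. Since the mice with CTLA4-Ig also entered the choice of the genes, that difference was not tested.

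Each deposited value is the log2 of a whole count times a single factor for that mouse, so the counted molecules could be recovered. *Pdzk1ip1* was counted 7, 13, 8 and 11 times in naive mice, and 12, 9, 8 and 7 times after BALB/c cells alone. With CTLA4-Ig the counts were 10, 9, 10 and 5, and with CTLA4-Ig and EPO they were 94, 71, 134 and 99. The counts of the 3 groups without EPO therefore overlapped throughout. A count of 5, the lowest, has a 95% exact Poisson interval from 1.62 to 11.7, and a count of 134, the highest, from 112 to 159. These intervals cover counting error only.

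*Tspan8* was counted 15, 10, 12 and 10 times in naive mice, and 12, 18, 16 and 15 times after BALB/c cells alone. With CTLA4-Ig the counts were 15, 10, 15 and 18, and with CTLA4-Ig and EPO they were 144, 130, 237 and 161. All mice without EPO stayed at 18 counts or fewer for this gene, and none given EPO was under 130. Whether counts this low lie above the background of the assay was not tested, since negative control probes were not analysed here. The total over all genes was between 562760 and 912328 counts per mouse, with overlapping ranges among the 4 groups.

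**Figure D2:**
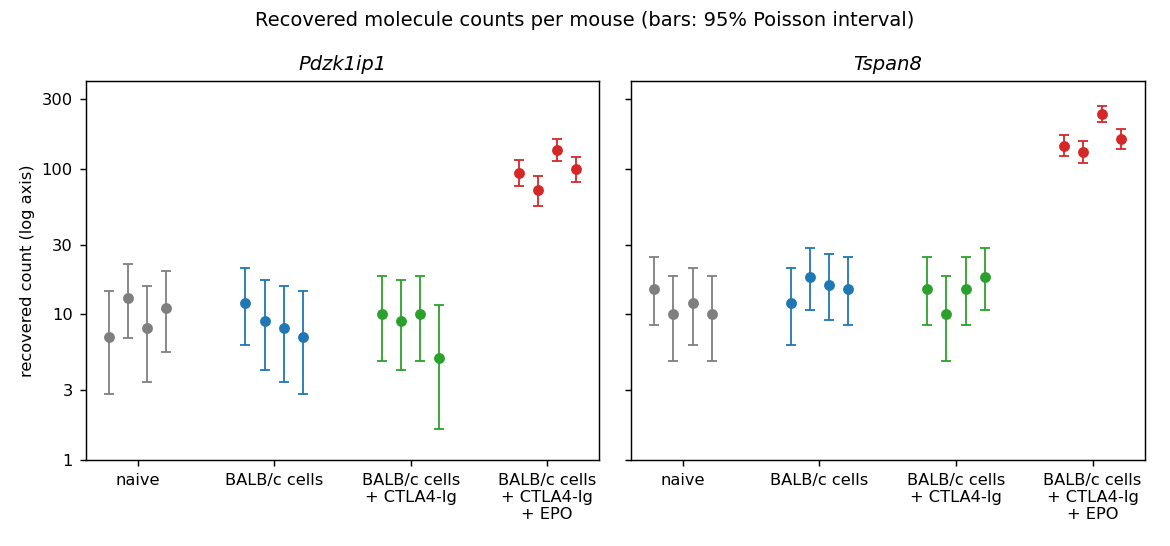
Recovered molecule counts of *Pdzk1ip1* (left) and *Tspan8* (right) in each mouse on a log axis, with 95% exact Poisson intervals as bars. The 3 groups without EPO lie between 5 and 13 counts for *Pdzk1ip1* and between 10 and 18 for *Tspan8*, and the EPO group between 71 and 237 over both genes.

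Per 100000 recovered counts, *Pdzk1ip1* was at 1.32 ± 0.319 in naive mice, 1.18 ± 0.366 after BALB/c cells alone, 1.10 ± 0.316 after adding CTLA4-Ig and 13.4 ± 2.63 after adding both drugs (SD, n = 4 each). *Tspan8* was at 1.61 ± 0.437, 1.98 ± 0.410, 1.87 ± 0.409 and 22.5 ± 4.40 in the same groups. On this scale the naive mean of *Pdzk1ip1* was still the highest of the 3 without EPO, by less than the SD, and that of *Tspan8* was the lowest.

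The contrast that chose the genes was large in both. With EPO, *Pdzk1ip1* was higher than with CTLA4-Ig without EPO by 3.53 on the log2 scale (standard error 0.24), which is 11.6-fold. *Tspan8* was higher by 3.49 (standard error 0.23), or 11.3-fold. The lowest mouse with EPO was 2.93 above the highest mouse with CTLA4-Ig for *Pdzk1ip1* and 3.04 above it for *Tspan8*. The summed counts of the 4 mice were 398 with EPO and 34 without it for *Pdzk1ip1*, and 672 and 58 for *Tspan8*. These few counts without EPO set the precision of the folds, and with 5 counts added to each value before the log2 the differences were 2.90 and 3.10. The RNA came from a mixture of cells, so more cells of a type and more RNA per cell cannot be told apart.

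Against BALB/c cells alone, the EPO group was higher by 3.42 (standard error 0.24) for *Pdzk1ip1* and by 3.40 (standard error 0.23) for *Tspan8*. Against naive mice the differences were smaller on the deposited scale, 2.17 (standard error 0.24) and 2.63 (standard error 0.23). After each mouse was centred on its median over all genes, they were 2.69 and 3.15. Per total count EPO over naive was 10.3-fold for *Pdzk1ip1* and 14.5-fold for *Tspan8*, against 12.3-fold and 12.2-fold over CTLA4-Ig. The contrast with naive mice was thus the smaller one on each of these scales for *Pdzk1ip1*, and for *Tspan8* not per total count. These values share the EPO group with the choice of the genes and were not tested.

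In the order of all 734 genes by the difference with EPO, *Pdzk1ip1* was at place 4 and *Tspan8* at place 5. *Lpl*, which encodes lipoprotein lipase, stood next above them at 3.65, and *Ear6*, which encodes an eosinophil-associated ribonuclease, next below at 3.37. In that contrast 167 of 734 genes were called higher by limma at 0.05 after Benjamini-Hochberg adjustment (22.8%) and 208 lower (28.3%), and all 4 mice with EPO were above all 4 without it for 156 genes (21.3%). Both members separated in that way, which their choice fixed.

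**Figure D3:**
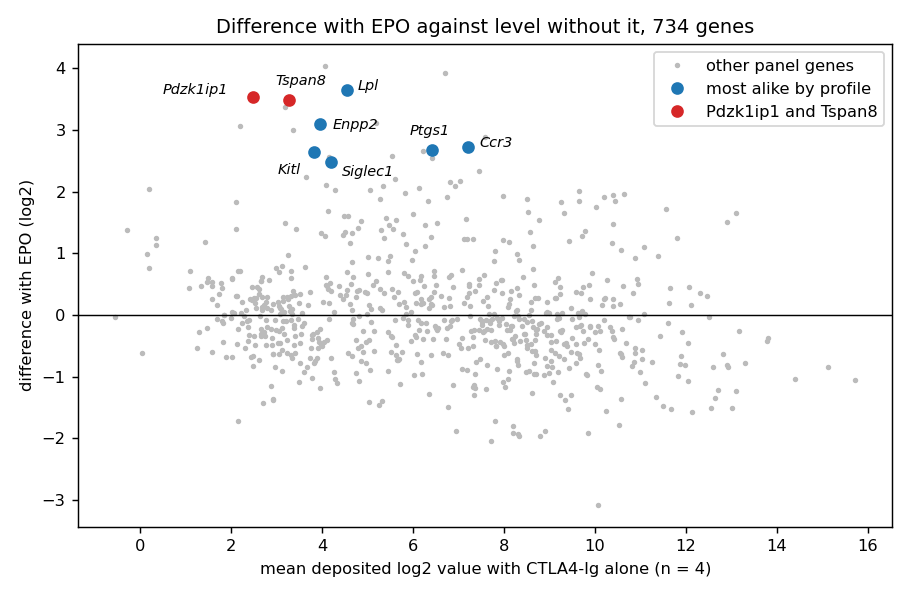
Mean log2 difference with EPO against the mean log2 level with CTLA4-Ig alone (n = 4 mice per group) for the 734 genes, with *Pdzk1ip1* and *Tspan8* in red and the genes most like them in blue. The members sit at 3.53 and 3.49 on the vertical axis, at levels of 2.48 and 3.28 without EPO.

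Setting BALB/c cells alone against no treatment asks how the foreign cells alone moved the genes. The values compared are from mice outside the contrast that chose the genes. The choice was made with earlier results of these data known, so the tests below are not fully separate from it. Limma also took its residual variance from all 16 mice. On the deposited scale *Pdzk1ip1* was lower after BALB/c cells, with a log2 difference of -1.25 (standard error 0.24, limma adjusted *P* value 0.000345) and all 4 mice below all 4 naive mice. The exact two-sided permutation test gave a *P* value of 0.0286, the smallest that 4 against 4 mice allow. With these 2 groups alone in the fit the adjusted *P* value was 0.00116. *Tspan8* was lower by limma, with a difference of -0.77 (standard error 0.23, adjusted *P* value 0.00813), but the groups overlapped and the exact permutation test gave a *P* value of 0.0571. With the 2 groups alone in the limma fit its adjusted *P* value was 0.0323, and limma without adjustment, the test and threshold of the paper for this panel, gave 0.00460.

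Both members were thus among the 429 of 734 genes (58.4%) called lower, against 87 called higher (11.9%), and 375 genes (51.1%) had all 4 mice after BALB/c cells below all 4 naive mice. Being lower was the common case on this scale. The median difference over all genes was -0.65, and relative to it *Pdzk1ip1* was at -0.61 and *Tspan8* at -0.12.

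The call of both genes depended on the scaling between mice. The factor that turned counts into deposited values was between 1.27 and 1.85 in naive mice and between 0.628 and 0.759 after BALB/c cells alone, and what it was computed from is not given in the sources used here. After centring each mouse on its median, the difference was -0.52 for *Pdzk1ip1* (limma adjusted *P* value 0.0715) and -0.04 for *Tspan8* (adjusted *P* value 0.899). With recovered counts scaled by their totals, limma-voom gave -0.17 for *Pdzk1ip1* (adjusted *P* value 0.698) and 0.32 for *Tspan8* (adjusted *P* value 0.376), so that the sign for *Tspan8* turned. Quantile normalization gave -0.30 (adjusted *P* value 0.273) and 0.16 (adjusted *P* value 0.553).

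The summed counts show the same in raw form. *Pdzk1ip1* had 39 counts in the 4 naive mice and 36 after BALB/c cells alone, a ratio of 1.13 per total count with an exact 95% interval from 0.697 to 1.82 for counting error. *Tspan8* had 47 and 61, a ratio of 0.801 with an interval from 0.535 to 1.19. A difference in these shares of all counts was not detectable at this depth for either gene.

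The totals themselves differed in makeup. *S100a8* and *S100a9*, the abundant calprotectin genes of neutrophils, took 46.0%, 28.3%, 25.1% and 30.6% of all counts in the naive mice and 6.13%, 2.30%, 3.45% and 2.08% after BALB/c cells alone. With CTLA4-Ig they took 4.25%, 3.79%, 2.29% and 2.57%, and with EPO 7.19%, 14.3%, 9.16% and 10.7%. Naive mice thus stood apart from the other 12, and the part of this in the values of *Pdzk1ip1* and *Tspan8* was not tested.

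**Figure D4:**
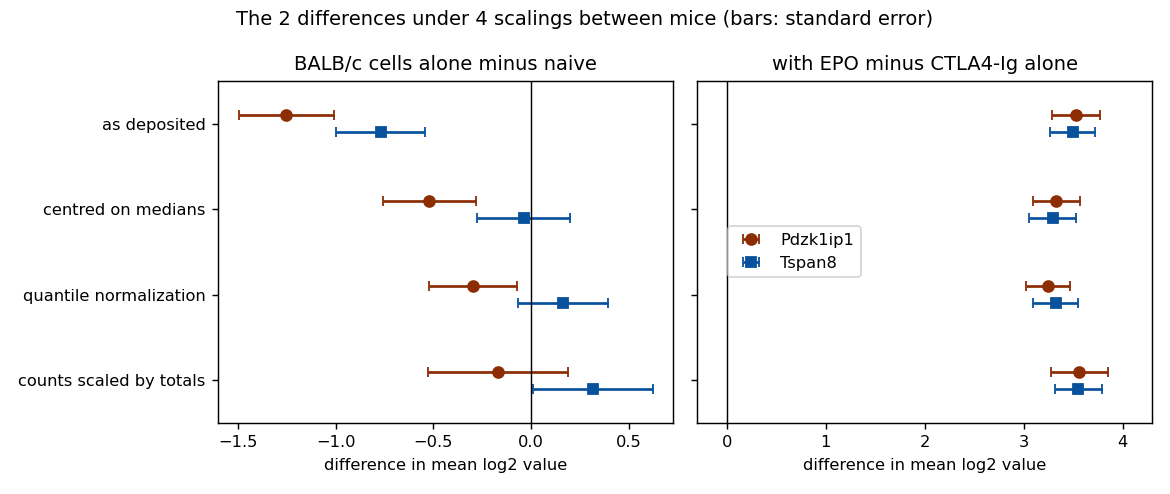
Log2 difference of *Pdzk1ip1* (circles) and *Tspan8* (squares) between BALB/c cells alone and naive mice (left) and between EPO with CTLA4-Ig and CTLA4-Ig alone (right), under 4 scalings between mice, with standard errors as bars. On the left the values go from -1.25 to 0.32, and on the right they stay between 3.25 and 3.56.

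Under these scalings the difference with EPO moved little. It was between 3.25 and 3.56 for *Pdzk1ip1* and between 3.29 and 3.55 for *Tspan8*, as a description without a test. The median over all genes was 6.54 with CTLA4-Ig and 6.75 with EPO on the deposited log2 scale, a shift that centring removes.

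The difference between the log2 values of the members within a mouse is free of any factor per mouse. *Pdzk1ip1* minus *Tspan8* was -1.10, 0.38, -0.58 and 0.14 in naive mice, and 0.00, -1, -1 and -1.10 after BALB/c cells alone. It was -0.58, -0.15, -0.58 and -1.85 with CTLA4-Ig, and -0.62, -0.87, -0.82 and -0.70 with CTLA4-Ig and EPO. The spread was narrowest with EPO, where the counts were highest, at -0.75 ± 0.12, against -0.79 ± 0.73 with CTLA4-Ig (SD, n = 4 each). Between BALB/c cells alone and naive mice the means differed by -0.48, with an exact two-sided permutation *P* value of 0.257, so a difference in how far the genes moved was not detected.

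The genes most like each member were found from the root mean square difference of log2 values over the 16 mice, each gene centred on its own mean, a measure that a factor per mouse leaves as it is. For *Pdzk1ip1* they were *Lpl* at 0.37, the eotaxin receptor gene *Ccr3* at 0.50, *Tspan8* at 0.53, *Kitl*, which encodes stem cell factor, at 0.54, and *Enpp2*, which encodes autotaxin, at 0.54. The median over all other genes was 1.59. For *Tspan8* they were *Enpp2* at 0.30, *Kitl* at 0.50, *Pdzk1ip1* at 0.53, the cyclooxygenase gene *Ptgs1* at 0.56 and the macrophage lectin gene *Siglec1* at 0.58, against a median of 1.64. Each member was at place 3 among the genes most like the other, and *Enpp2* and *Kitl* were in both sets. The mice that chose both members are among these 16, so their likeness to each other and to genes high with EPO was largely fixed by the choice. By Pearson's r in place of this measure, *Tspan8* was at place 13 for *Pdzk1ip1*, and *Pdzk1ip1* at place 14 for *Tspan8*.

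On the deposited scale these genes, like the members, were lowest without EPO after BALB/c cells and highest with it. From naive mice to BALB/c cells alone, *Lpl* was called lower under all 4 scalings, *Ccr3* under all but limma-voom, and *Ptgs1* as deposited and after quantile normalization. *Enpp2* and *Kitl* were called lower as deposited only and *Siglec1* under no scaling, and the sign of these 3 differences turned under the other scalings without a call. *Lpl* was at 6.55 ± 0.24 in naive mice, 4.83 ± 0.15 after BALB/c cells alone, 4.55 ± 0.17 with CTLA4-Ig and 8.20 ± 0.12 with EPO (SD, n = 4 each, log2). *Enpp2* was at 4.59 ± 0.38, 3.97 ± 0.30, 3.94 ± 0.11 and 7.04 ± 0.48 in the same groups. *Kitl* was at 4.59 ± 0.35, 3.93 ± 0.16, 3.82 ± 0.27 and 6.46 ± 0.23. With EPO, the differences of *Pdzk1ip1* and *Tspan8* from CTLA4-Ig (3.53 and 3.49) lay below that of *Lpl* (3.65) and above those of *Enpp2* (3.10), *Ccr3* (2.72), *Ptgs1* (2.68), *Kitl* (2.64) and *Siglec1* (2.49), and all of these values come from the mice used to choose the members.

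**Figure D5:**
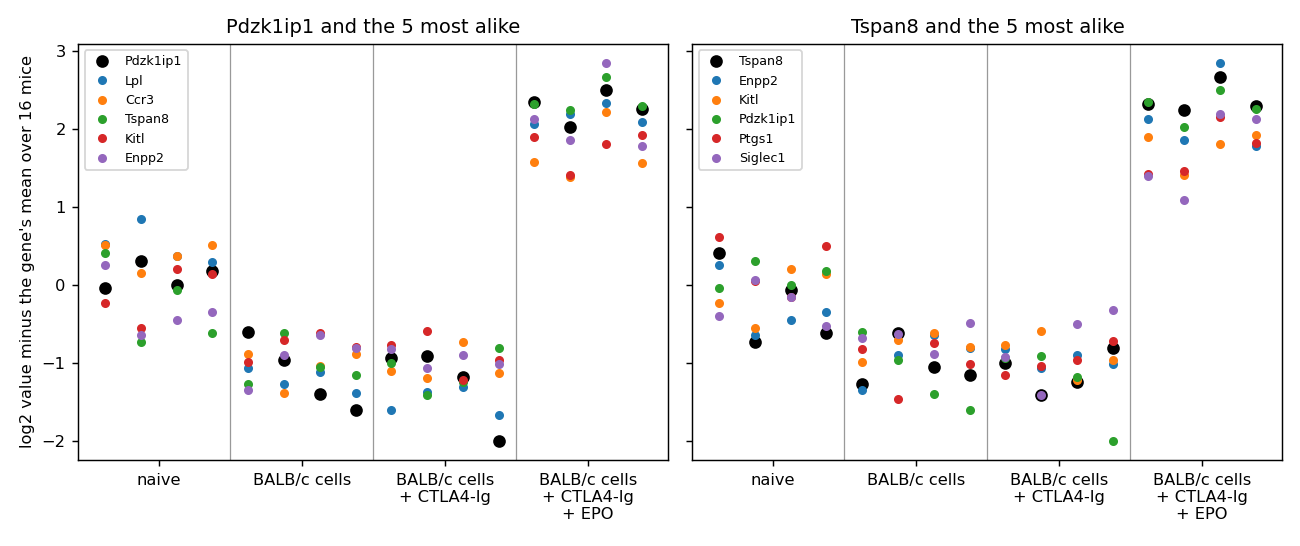
Log2 value minus the gene's mean over the 16 mice, for *Pdzk1ip1* with the 5 genes most like it (left) and *Tspan8* with its 5 (right), each point a mouse, in the order of replicates 1 to 4 within a group. All plotted genes lie above 1 in the 4 mice given EPO, and below 0 in the 8 mice given BALB/c cells without EPO.

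Other genes tied to the roles of the members were few on the panel. Of 24 listed tetraspanins other than *Tspan8*, 2 were measured. *Cd151* rose with EPO from 5.46 ± 0.15 to 6.15 ± 0.15 (SD, n = 4 each), by 0.70 (limma adjusted *P* value 0.00678, not called after quantile normalization). *Tspan7* was at 2.89 ± 0.53 and 2.40 ± 0.62 and was not called. In BALB/c cells alone minus naive, *Cd151* was at -1.07 and *Tspan7* at -0.37, the first called on the deposited scale only.

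Of 13 listed partners of tetraspanins, 5 were measured, and with EPO 2 were called higher and 1 lower, near the shares over all genes (22.8% and 28.3%), with a median difference of 0.36 against -0.07 over all genes. The integrin genes *Itga5* and *Itgb1* rose by 0.42 and 0.36, and neither was called after centring on medians or quantile normalization. *Itga4* fell by 0.56, and *Cdh1* (0.40) and *Cd44* (-0.02) were not called. In BALB/c cells alone minus naive, 4 of these 5 genes were called lower as deposited, where 58.4% of all genes were, and of them *Itgb1* was called higher after quantile normalization and with limma-voom. None of the 10 listed PDZ partners and transporters of the *Pdzk1ip1* protein was among the genes analysed here.

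Markers of other cells moved in the same contrast as *Pdzk1ip1* and *Tspan8*, and their counts stand beside 22.8% higher and 28.3% lower over all genes. The summed level of the 9 measured red pulp macrophage genes, of which *Vcam1* was the most abundant, was 13.03, 13.10, 13.19 and 13.02 on the log2 scale with CTLA4-Ig and 14.75, 14.68, 15.15 and 14.87 with EPO. All 9 were called higher with EPO (median 1.72), with *Mertk* at 2.17, *C1qa* at 2.01, *C1qc* at 1.96 and *C1qb* at 1.91. The list held 16 genes, of which *Spic*, *Slc40a1*, *Hmox1* and *Cd5l* were among those not measured. Which macrophages carried the measured ones was not tested. The 8 eosinophil genes, led in level by *Prg2*, summed to 8.77, 8.63, 8.60 and 8.39 with CTLA4-Ig and to 11.27, 11.78, 11.56 and 11.55 with EPO. Of them 6 were called higher and 1 lower, with *Prg2* at 3.92, *Ear6* at 3.37, *Epx* at 3.00 and *Ccr3* at 2.72. The receptor gene *Il5ra* was the lower one (-0.78), and the marker *Siglecf* (0.51) was called with limma-voom only. In BALB/c cells alone minus naive, 7 of the 8 were called lower as deposited and after centring, and 5 with limma-voom, beside 429, 196 and 137 of all 734 genes. Of the red pulp macrophage genes 3 were higher and 2 lower there as deposited, and 7, 7 and 8 of 9 were higher after centring, quantile normalization and limma-voom, beside 87, 242, 251 and 339 of 734. The part of these cells in the values of *Pdzk1ip1* and *Tspan8* was not tested.

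For the lineages in which *Pdzk1ip1* or EPO has a known role, 6 stem and progenitor genes were measured, and 0 were called higher and 2 lower with EPO by limma, *Flt3* by -0.85 and *Kit* by -0.47 (the latter not called with limma-voom), where 28.3% of all genes were lower. At an unadjusted *P* value below 0.05 the count higher was also 0, and under the other scalings 3, 3 and 1 of the 6 were lower and 0 higher. Of 24 listed erythroid genes 3 were measured, and which cells carried them was not tested. *Gata1* rose by 2.23 and *Socs2* by 1.26, and *Cd36*, the most abundant, was not called (0.03). Their sum went from 9.67, 9.80, 9.35 and 9.11 with CTLA4-Ig to 9.73, 10.05, 9.60 and 9.85 with EPO, so these groups overlapped. Of 4 megakaryocyte and platelet genes 3 were called higher, *Clec1b* by 2.20, *Pf4* by 1.29 and *Pdgfa* by 0.48, while *Selp* (0.50) was called with limma-voom only, and *Pdgfa* only as deposited. Their sums lay between 6.65 and 7.06 with CTLA4-Ig and between 8.32 and 8.47 with EPO, and *Clec1b*, the most abundant, was at the lowest recovered count in 1 naive mouse. After BALB/c cells alone against naive mice, *Gata1* was lower (-2.53) and *Socs2* (0.93) and *Cd36* (0.65) were higher, each under all 4 scalings.

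Lymphocyte genes went the other way from the members. All 5 T cell genes fell with EPO (median -1.88), *Ctla4* by 2.04, *Cd28* by 1.97, *Cd40lg* by 1.88, *Cd247* by 1.27 and *Icos* by 0.96, and their sum, led by *Cd28*, lay between 10.31 and 10.42 with CTLA4-Ig and between 8.53 and 9.13 with EPO. The B cell gene *Ms4a1* fell by 0.76, and the NK cell genes *Gzma*, *Nkg7* and *Klrk1* fell by 0.85, 0.63 and 0.61, the last 2 not with limma-voom. All 5 T cell genes were higher after BALB/c cells alone than in naive mice under each scaling, where the members were lower or not called. Of all 734 genes, 87, 242, 251 and 339 were higher there as deposited and after centring, quantile normalization and limma-voom.

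The selection itself was checked on its markers. *Itgam*, which encodes CD11b, was at 11.42 in naive mice, 8.85 after BALB/c cells alone, 9.22 with CTLA4-Ig and 9.56 with EPO, and its difference with EPO of 0.33 was not called as deposited or after centring, but was after quantile normalization (0.40) and with limma-voom (0.43). Of 6 measured CD11b+ myeloid markers, 4 were called higher with EPO, *Fcgr1* (2.65), *Cd68* (1.36), *Adgre1* (1.27) and *Csf1r* (1.16), and *Ptprc* was lower (-0.63). *Itgax*, which encodes CD11c, was also measured and fell with EPO by 0.93. In BALB/c cells alone minus naive, where *Pdzk1ip1* and *Tspan8* were lower as deposited, *Itgam* fell by 2.57 and was called lower under all 4 scalings. All 6 CD11b+ markers were called lower as deposited, where 58.4% of all genes were, and 3 after centring, where 196 of 734 were. With limma-voom 2 were lower, where 137 of 734 were, and *Ptprc* was higher. Their part in the values of the members was not tested.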

How the data were processed

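The authors imported nCounter counts into limma and deposited normalized log2 values for 734 genes in 16 mice, which were used as deposited and without a filter. Counts were recovered as 2 to the power of a value minus the mouse's smallest value, and 100% were whole to within 0.001. The lowest recovered count of 1 may stand for 0. No pair of mice in a group was within sampling noise (chi-square per degree of freedom at least 5.10).

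Differences came from limma 3.58.1 in R 4.3.3 with 1 mean per group over the 16 mice, Benjamini-Hochberg adjustment over all genes and a threshold of 0.05. The code was tested on simulated data. Exact two-sided permutation tests and Poisson intervals used scipy 1.17.1 in Python 3.11.15, with numpy 2.4.6, pandas 2.3.3 and matplotlib 3.10.9. The main fits held no pairing of mice, and the replicate number was used as a block only as an alternative. Deviations from the group means of CTLA4-Ig and EPO mice correlated over genes in all 4 pairs of like number (0.143 to 0.183). A pair with unlike numbers, CTLA4-Ig mouse 1 and EPO mouse 2, correlated at 0.192, above all 4, so a pairing by number is not established. For naive mice and mice given BALB/c cells alone, the pairs of like number were between -0.06 and 0.17.

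The members and gene lists were chosen with earlier results of these data known. Named are the members, the 5 genes most like each, their neighbours in the order with EPO, all measured tetraspanins and partners, of each other list up to 4 called genes with the largest EPO difference and all genes of lists with at most 5 measured, and defining markers. Lists were written from general knowledge. Gene symbols were matched to the RefSeq table of GRCm38.p6, of which 724 were current, 9 were synonyms and 1 had no match.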

Additional observations from a re-analysis of the deposited data

Results flagged for a closer look

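In 12 groups of 4 values looked at for a sample far from the others, 2 stood out. Chance gives about 1 in 20 for normally distributed values, a rate that need not hold for low counts. The 12 are not separate looks, since *Pdzk1ip1* minus *Tspan8* is made from the values of the 2 genes. *Tspan8* in mouse 3 of the EPO group was 7.05, against 6.63 to 6.70 in the other mice of that group, a gap of 0.832 of the range. That mouse was also the highest of its group for *Pdzk1ip1* (6.23) and for the summed red pulp macrophage genes (15.15). Without it the *Tspan8* difference from CTLA4-Ig was 3.40.

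*Pdzk1ip1* minus *Tspan8* was 0.00 in mouse 1 given BALB/c cells alone, where both genes had 12 counts, and between -1.10 and -1 in the other mice of that group, a gap of 0.909 of the range. Without that mouse the difference from naive mice was -0.74 in place of -0.48 (exact permutation *P* value 0.229).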

How the results depend on the processing

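The calls of BALB/c cells alone minus naive depended on the scaling between mice, and that of *Tspan8* also on the test. The limma-voom alternative changed the model as well as the scaling. For *Pdzk1ip1* the difference of -1.25 was no longer called after centring on medians (-0.52), quantile normalization (-0.30) or limma-voom on counts scaled by totals (-0.17). For *Tspan8*, -0.77 was no longer called after centring (-0.0389) or by a plain t-test on the 2 groups (-0.77, adjusted *P* value 0.0638), which the paper does not give for this panel, and reversed after quantile normalization (0.16) and limma-voom (0.32). Over all genes, the split of 87 higher and 429 lower became 242 and 196, 251 and 192, and 339 and 137 under these 3 scalings, and with EPO 167 and 208 became 126 and 276, 155 and 223, and 189 and 151. What the authors' factor was computed from, and so which scaling fits, was not tested.

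With 5 counts added, the differences with EPO moved to 2.90 (*Pdzk1ip1*) and 3.10 (*Tspan8*). With each mouse left out in turn they lay between 3.28 and 3.65, and between 3.40 and 3.60. For BALB/c cells alone minus naive they lay between -1.43 and -1.10, and between -0.93 and -0.55, each still called by limma. *Pdzk1ip1* minus *Tspan8* lay between -0.75 and -0.26, with no *P* value below 0.05.

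With the replicate number as a block, 400 genes in place of 375 were called with EPO and 531 in place of 516 for BALB/c cells alone minus naive, *Pdzk1ip1* (-1.25) and *Tspan8* (-0.77) were still called, and *Pdzk1ip1* minus *Tspan8* (-0.48) had a *P* value of 0.375 (exact sign-flip test, smallest possible 0.125). No other call of the members was run with the block. The calls of listed genes came from the fit without it, and with it 182 genes were higher and 218 lower with EPO. The other alternatives (the 2 groups alone, trended and robust moderation, unadjusted *P* values and, chosen after the data were seen, that t-test without adjustment) kept both members' calls. Leaving out the lowest 25% of genes removes *Pdzk1ip1* and kept the call of *Tspan8*. Counted from the top within each mouse, *Tspan8* was at places 555 to 630 in naive mice and 568 to 628 after BALB/c cells alone. It was at places 568 to 633 with CTLA4-Ig, and at 338 to 383 with EPO. *Tspan8* thus passed this filter through the EPO group, which was used to choose it, so its kept call is not a separate check. By Pearson's r, 1 of the 5 genes most like *Pdzk1ip1* and 2 of those most like *Tspan8* were the same.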

Other observations

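Other measured lists are given here with EPO, where 22.8% of all genes were called higher and 28.3% lower. All 3 primary granule genes were called higher, *Ctsg* by 3.12, *Mpo* by 2.88 and *Elane* by 2.54 on the log2 scale (limma). All 3 were lower after BALB/c cells alone than in naive mice under each scaling, where *Pdzk1ip1* and *Tspan8* were called lower as deposited only. In that contrast 429, 196, 192 and 137 of 734 genes were lower as deposited and after centring, quantile normalization and limma-voom. All 4 proliferation genes were called higher, *Birc5* by 1.88, *Ccnb2* by 1.54, *Top2a* by 1.18 and *Cdc20* by 1.16. Of 9 mature neutrophil genes 4 were called higher, among them *Camp* at 1.94 and *S100a9* at 1.65, and 1 lower, *Il1r2* at -3.08. With limma-voom 7 of the 9 were called higher, with *Ly6g*, *Mmp8* and *Csf3r* added.

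Of 9 basophil and mast cell genes 3 were called higher, *Fcer1a* (1.33), *Ms4a2* (1.28) and *Cpa3* (0.64), and 2 lower, with *Cma1* at -0.72, which is near the shares over all genes. *Tpsb2* was at the lowest recovered count in some mice. Of 15 listed genes of the erythroblastic island and iron, 2 were measured, the macrophage genes *Vcam1* and *Cd163*. Both were called higher (1.72 and 1.67), and both were already counted among the red pulp macrophage genes. Of 8 endothelial and stromal genes, *Cxcl12* was called lower (-0.92, not with limma-voom) and *Cdh5* (-0.62) after centring and quantile normalization only, and the other 6 were not called as deposited.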
